A study of Mus musculus with 8 samples.

Results

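Late remodelling of the infarcted left ventricle was compared with the early infarct: 4 arrays of hearts on days 30 and 60 were set against 2 arrays of day 3 hearts. Days count from the tying off (ligation) of the coronary artery that feeds the front wall, the left anterior descending branch. These 6 arrays, chosen by their labelled time point, are part of a series of 8, and the other 2, of untreated hearts, served for reference. Each array held RNA of 1 strain at 1 time point: MRL/MpJ, a strain in which punched ear holes close, or C57BL/6, a common inbred strain. All animals were males of 2 to 4 months by the labels, which name no transgene and no deletion. For day 30 and for day 60 there was 1 array of ligated MRL/MpJ and 1 of ligated C57BL/6 hearts. Day 3 likewise had 1 array of each ligated strain, and the untreated arrays were 1 of each strain without operation. The untreated hearts had no sham surgery, and the labels say neither whether an array pools animals nor whether scar or remote muscle was sampled. Since no array has a replicate of its own strain and day, p-values measure only the spread between these arrays. That spread mixes technical variation and differences between animals with those between days 30 and 60 and between the courses of the strains. These cannot be told apart.

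An infarct heals in overlapping phases. Dead muscle is first cleared by neutrophils and macrophages, while fibroblasts lay down a provisional matrix of fibronectin, tenascin and new collagen. Later the inflammation recedes, the collagen is cross-linked into a scar, and the surviving muscle, under greater wall stress, turns on genes of the fetal heart and lowers its use of fatty acids.

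Values are MAS5 signals, the linear brightness of a probe set, and differences are log2 of the signal plus an offset of 28.6, which compresses differences between dim signals. Of 12393 genes with a probe set, 8195 had a signal of at least 121 in at least 2 of the 8 arrays and were tested. The deposited arrays were on a like scale, with trimmed means of 247.2 to 248.4. The C57BL/6 day 30 array stood apart: its correlation with the other arrays across genes was 0.844 to 0.877 in 7 pairs, against 0.884 to 0.948 in the 21 pairs without it, where genes are not independent replicates. Its highest signal was 75193, that of Myl2, the ventricular myosin light chain, against 23390.1 to 35348 in the other arrays. Heart muscle was present throughout, since Myh6, the adult alpha-myosin heavy chain, read 21313 and 22530.5 on day 30 and 12351 and 18315 on day 60, against 17443 and 18322 on day 3 and 20829 and 13965 untreated (MRL/MpJ first in each pair, here and in every quadruple of time points below). The summed signal of 6 heart muscle markers was 95681 to 194105 in late, 113728 to 117854 in day 3 and 95830 to 111973 in untreated arrays. It was highest in the C57BL/6 day 30 array. Atrial muscle genes, in contrast, came and went between arrays labelled as ventricle. Sln, sarcolipin of atrial muscle, read 3254 and 3078 on day 30 and 2932 and 6.7 on day 60, against 6.1 and 858 on day 3 and 235 and 251 untreated, so it was near 0 in the MRL/MpJ day 3 and C57BL/6 day 60 arrays. Myl7, the atrial regulatory light chain, read 3899 and 3372 on day 30 and 2967 and 11.9 on day 60, against 97.6 and 1078 on day 3 and 532 and 442 untreated, with its lowest values in those same arrays. The summed signal of the 19 measured atrial and conduction genes was 26991 to 66384 in late, 17387 to 48407 in day 3 and 12962 to 16435 in untreated arrays, with 4 of the 19 under a signal of 121 in every array. Much of this sum was Nppa, atrial natriuretic peptide, listed also with the fetal and stress genes. Nppa made up 41056 of the 66384 in the C57BL/6 day 30 array and 28354 of the 48407 in the MRL/MpJ day 3 array. The latter array thus had the highest day 3 sum, though Sln read 6.1 and Myl7 97.6 in it.

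Late hearts against day 3 hearts asks what the ventricle expresses once the early infarct has turned into a scar. No single gene passed: limma called 0 of 8195 genes (0%) with strain as a block. An unadjusted p under 0.05 was reached by 312 genes (3.81%), and each of the 17 alternative analyses also called 0. Directions are therefore given as a description, by asking for the same sign in all 4 late arrays against the day 3 array of their own strain. By that rule 663 genes (8.09%) stood above day 3 and 974 (11.9%) below it. With a mean difference of at least 2-fold as well, 28 genes (0.342%) stood above and 47 (0.574%) below.

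The courses from untreated through day 3 to the late hearts were sorted by 2-fold limits, with no test. The differences share arrays: day 3 enters both the early difference and the late difference, and the untreated arrays enter both differences from untreated. On day 3, 195 genes (2.38%) lay at least 2-fold above untreated in the mean and above it in both strains, and 46 (0.561%) lay below. Persistent genes, still at least 2-fold above untreated in the mean of the late arrays and above it in all 4 with a late shift under 2-fold, numbered 108 (1.32%). Of the early genes 4 had resolved (0.0488% of all 8195 genes). Their late means were back within 2-fold of untreated and at least 2-fold below day 3. All 4 late arrays lay below day 3, but single arrays could miss either 2-fold limit. Another 3 (0.0366% of all genes) had resolved in part, and 2 (0.0244%) had gone further up. The remaining 78 of the 195 met no class rule, since resolution asks for more than persistence does. By the late mean alone, 69 of the 195 were back within 2-fold of untreated. In the other direction 11 genes (0.134%) were persistently low, 7 (0.0854%) had resolved from an early low, and 0 had resolved in part or gone further down. Of the 46 early low genes 28 met no class rule, and 33 were back within 2-fold of untreated by the late mean alone. Late-only genes, which had a mean difference from untreated under 0.5 on the log2 scale on day 3, numbered 5 above (0.061%) and 8 below (0.0976%). Late hearts lay at least 2-fold above untreated ones by the same rule in 187 genes (2.28%) and below in 41 (0.5%). Without the C57BL/6 day 30 array, 106 genes were persistently high, of which 93 are among the 108, and 12 high genes had resolved, including the 4.

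**Figure D1:**
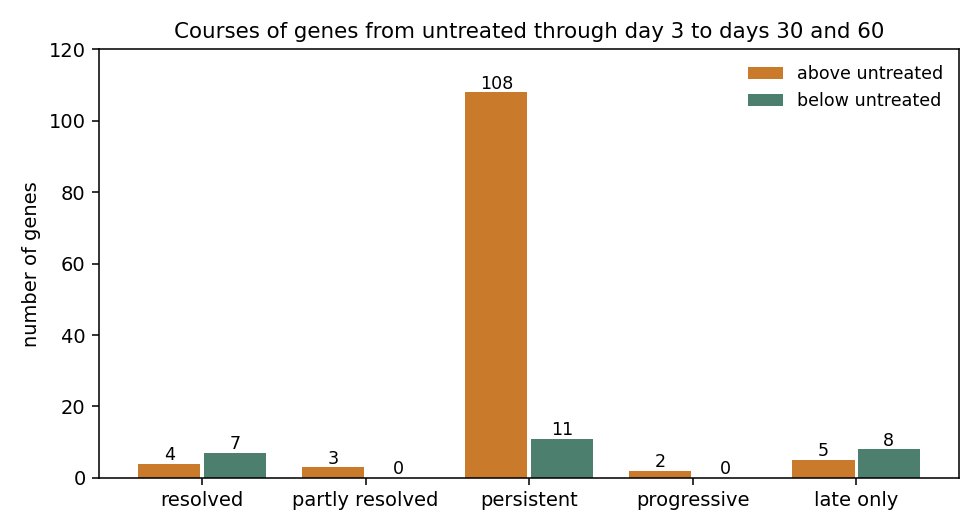
Number of genes (vertical axis, from 0) in each course from untreated through day 3 to the late hearts, of 8195 genes; orange bars are genes above untreated and green bars genes below it. The persistent class above untreated holds 108 genes, against at most 11 in any other class; the rule for resolved genes is stricter, and 78 of the 195 early high and 28 of the 46 early low genes, in no class, are not drawn.

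The late rise with the smallest p was that of Serpina3n, a secreted inhibitor of serine proteases known as an acute-phase gene. Its signal was 755 and 434 on day 30 and 499 and 482 on day 60, against 319 and 237 on day 3 and 34.8 and 31.1 untreated. All late values lay above both day 3 values, and all ligated values above the untreated ones. Serpina3n rose late against untreated by a log2 of 3.18 (SE 0.23, limma adjusted p = 0.00302, 4 arrays against 2), 1 of 3 genes called in that comparison (0.0366%). Dkk3, a secreted glycoprotein of the Dickkopf family, had 504 and 568 on day 30 and 894 and 429.8 on day 60, against 379 and 192 on day 3 and 60.9 and 53.7 untreated. Its lowest late value exceeded the higher day 3 value, and it rose late by 2.82 (SE 0.29, limma adjusted p = 0.0191). Dkk3 also belongs to the atrial markers, and its lowest late value was in the C57BL/6 day 60 array, where Sln read 6.7; the part of atrial tissue in its values was not tested. The third gene was Kcne4, an accessory subunit of voltage-gated potassium channels, with 321 and 242 on day 30 and 385 and 218 on day 60, against 253 and 247 on day 3 and 58.6 and 13.6 untreated. The late values of Kcne4 overlapped those of day 3, and it rose late against untreated by 2.37 (SE 0.25, limma adjusted p = 0.0191). Without either untreated array 0 genes were called, with adjusted p = 0.12 or 0.207 for Serpina3n, and without either day 3 array 35 were called. Without the C57BL/6 day 60 array limma adjusted p was 0.0605 for Dkk3 and 0.0685 for Kcne4, and without the MRL/MpJ day 60 array 0.0843 for Dkk3 and 0.127 for Kcne4. Kcne4 also lost its call without the MRL/MpJ day 30 array (adjusted p = 0.0535), and both lost it with no filter (0.0537 each). Of 16 alternatives, 14 called Serpina3n, 11 Dkk3 and 10 Kcne4.

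On day 3 limma called 7 of 8195 genes against untreated (0.0854%), all of them higher: Col1a2, Col3a1, Serpina3n, Col1a1, Anpep, Eln and Kcne4. There were 485 genes (5.92%) with an unadjusted p under 0.05. Among genes outside these calls, Sfrp2, a secreted protein that binds Wnt ligands, showed one of the widest spans, with 629.7 and 1708 on day 30 and 2085 and 2102 on day 60, against 3143 and 894 on day 3 and 51.3 and 46.8 untreated. Every ligated value of Sfrp2 was over 10 times both untreated values, yet it missed the threshold late against untreated (log2 4.28, SE 0.58, limma adjusted p = 0.058). Its late shift from day 3 was negative in both MRL/MpJ arrays and positive in both C57BL/6 arrays. Ecrg4, which encodes the secreted peptide augurin, had 175 and 383 on day 30 and 595 and 478 on day 60, against 457 and 93.1 on day 3 and 28.0 and 8.2 untreated. The MRL/MpJ day 30 value of Ecrg4 was below that of day 3, and the other late values were above the day 3 value of their strain. Postn, periostin, the matricellular protein of activated fibroblasts, had 3694 and 2397 on day 30 and 3285 and 3877 on day 60, against 6776 and 1659 on day 3 and 259 and 519 untreated. Its late values lay between the 2 day 3 values, so the late mean differed from the day 3 mean by a log2 of only -0.04 (SE 0.42). Ccn2, connective tissue growth factor, had 2844 and 3438 on day 30 and 5381 and 3143 on day 60, against 3599 and 1283 on day 3 and 713 and 647 untreated. Tnc, tenascin C of provisional matrix, had 188 and 103 on day 30 and 96.9 and 100.4 on day 60, against 379 and 142 on day 3 and 26.2 and 26.2 untreated. Ccn2 stayed at its early level or above it in 3 of 4 late arrays, whereas Tnc stood below day 3 in all 4.

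**Figure D2:**
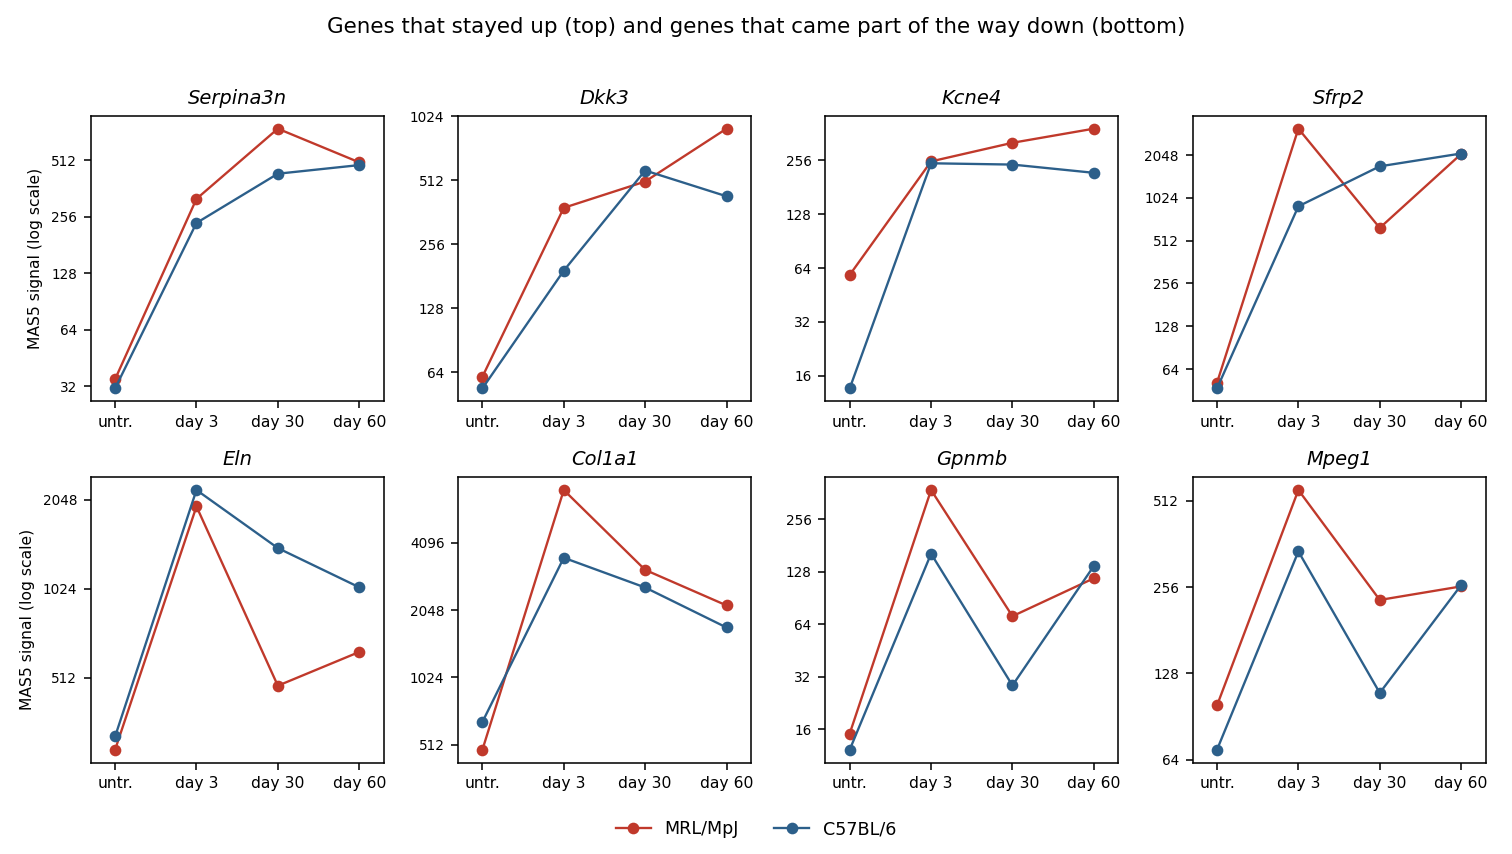
MAS5 signal (log axis) in each of the 8 arrays by time point, 1 point an array, with MRL/MpJ in red and C57BL/6 in blue. Serpina3n, Dkk3, Kcne4 and Sfrp2 remained far above untreated hearts on days 30 and 60, while Eln, Col1a1, Gpnmb and Mpeg1 lay below their day 3 values in every late array and above untreated.

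Fibroblast, matrix and matricellular genes were mostly above untreated hearts late. Of 26 fibroblast markers tested, 23 stood above untreated in all 4 late arrays, where 14.6% of all genes did, and their median late difference from untreated was 0.95, against -0.04 over all genes. In bulk tissue, more cells of a type and more RNA per cell cannot be told apart. The 40 genes for fibrillar collagen and matrix had 30 members above untreated in all 4 late arrays, but 13 also lay below day 3 in all 4, where 11.9% of all genes did. Their median shift from day 3 was -0.20, against -0.05 over all genes. By array that shift was -0.84 on day 30 and -0.43 on day 60 in MRL/MpJ, and 0.05 on both days in C57BL/6. Of 18 matricellular and wound genes, 17 lay above untreated in all 4 late arrays, with a median of 1.09, and 1 lay below day 3 in all 4. In late against day 3 limma called 0 members of these lists. The summed signal of all 28 fibroblast markers was 44066 to 49961 in late, 37623 to 57388 in day 3 and 22247 to 23190 in untreated arrays.

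Elastin and the fibrillar collagens stood between their day 3 and untreated levels. Eln, which encodes the core protein of elastic fibres, had 481 and 1405 on day 30 and 625 and 1035 on day 60, against 1943 and 2208 on day 3 and 292 and 324 untreated. All late values were below both day 3 values and above both untreated ones, a mean late shift of -1.31 on the log2 scale (SE 0.30, limma adjusted p = 0.999). Its other probe set gave -1.85. Col1a1, the main chain of type I collagen, had 3103 and 2587 on day 30 and 2151 and 1713 on day 60, against 7072 and 3516 on day 3 and 486 and 646 untreated. Its late shift was -1.09 (SE 0.30), with -1.06 on the other probe set, and the late values were still above both untreated ones. Col1a2, the partner chain, had 4404 and 4079.7 on day 30 and 4542 and 2974 on day 60, against 10356 and 4936 on day 3 and 889.7 and 936 untreated. Col3a1, type III collagen, had 7955 and 6863 on day 30 and 6942 and 5608 on day 60, against 16636 and 8957 on day 3 and 2677 and 1858 untreated. Their shifts of -0.85 and -0.84 stayed under 2-fold, so that both count as persistent, while their other probe sets gave -1.24 and -1.24. Col11a1, a minor fibrillar collagen of cartilage, had 121 and 20.3 on day 30 and 158 and 92.6 on day 60, against 389 and 151 on day 3 and 68.2 and 19.4 untreated and was among the 4 resolved genes, although its other, dimmer probe set shifted by only -0.05. Fn1, fibronectin, had 1466 and 1904 on day 30 and 2327 and 2705 on day 60, against 3679 and 2276 on day 3 and 442 and 558 untreated and missed the call late against untreated (log2 1.98, limma adjusted p = 0.0612). Anpep, the membrane peptidase CD13, had 81.1 and 115 on day 30 and 84.8 and 83.3 on day 60, against 126 and 179 on day 3 and 17.6 and 20 untreated and stayed above untreated in all 4 late arrays. Of the matrix-degrading enzymes, Mmp14, a membrane-bound collagenase, had 344 and 418 on day 30 and 269.5 and 269 on day 60, against 581 and 493 on day 3 and 230.0 and 175 untreated. It stood below day 3 in all 4 late arrays, as did 4 of 23 matrix protease genes, against 11.9% of all genes.

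Macrophage genes were lower late than on day 3 in part of the list, and above untreated in most of it. Of 32 tested, 7 lay below day 3 in all 4 late arrays, where 11.9% of all genes did. Above untreated in all 4 were 19, where 14.6% of all genes were, and the median shift from day 3 was -0.15. Gpnmb, a glycoprotein of lipid-laden macrophages, had 71.1 and 28.5 on day 30 and 117 and 138 on day 60, against 376 and 162 on day 3 and 15.1 and 12.2 untreated. Every late value of Gpnmb was below both day 3 values and above both untreated ones (log2 -1.36, SE 0.44). Mpeg1, a pore-forming protein of macrophages, had 231 and 109.5 on day 30 and 258 and 260.2 on day 60, against 559 and 341 on day 3 and 99.0 and 69.4 untreated, again with no overlap between late and day 3. Ctss, the lysosomal protease cathepsin S, had 729 and 758 on day 30 and 895 and 799 on day 60, against 1641 and 943 on day 3 and 244 and 433 untreated. Clec7a, the beta-glucan receptor dectin-1, had 96.8 and 130.0 on day 30 and 116 and 101 on day 60, against 227 and 187 on day 3 and 100.4 and 162 untreated, near the untreated values in the late arrays. Coro1a, a leukocyte actin-binding protein, stood higher late, with 218 and 256 on day 30 and 172 and 172 on day 60, against 163 and 82.9 on day 3 and 87.2 and 52.7 untreated. All its late values lay above both day 3 values, but its other probe sets, which are dimmer, shifted by -0.27 and -0.08. The summed signal of the 39 macrophage markers on the array was 15985 to 20057 in late, 18277 to 23228 in day 3 and 8582 to 12397 in untreated arrays. Without the MRL/MpJ day 3 array the list's median shift was 0.0027.

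Class II and antigen presentation genes stood lower as well, with a median shift of -0.49 over 17 members. Of these, 7 lay below day 3 in all 4 late arrays and 1 above, against 11.9% and 8.09% of all genes. H2-Aa, a class II chain that shows peptides to helper T cells, had 272 and 1750.2 on day 30 and 1095 and 1276 on day 60, against 1077 and 2857 on day 3 and 272 and 1393 untreated. The untreated arrays of the strains lay far apart in H2-Aa, and the MRL/MpJ day 60 value lay slightly above that of day 3. Cd74, the invariant chain that escorts class II molecules, had 426 and 1102 on day 30 and 946 and 991 on day 60, against 1126 and 1749 on day 3 and 409.6 and 963 untreated, below day 3 in all 4 late arrays. Psmb8, an immunoproteasome subunit, stood above day 3 in all 4, with 246 and 246 on day 30 and 249 and 308 on day 60, against 134 and 184 on day 3 and 143 and 177 untreated. Without the C57BL/6 day 30 array the list's median was -0.25. Of 27 cell cycle genes tested, 5 lay below and 2 above day 3 in all 4 late arrays, against 11.9% and 8.09% of all genes. Their median shift was -0.17, but its sign differed between the strains. By array it was -0.58 on day 30 and -0.18 on day 60 in MRL/MpJ, and 0.31 and 0.07 in C57BL/6. Cdca3, a mitotic regulator, was one of the 5 lower genes, with 73.7 and 134 on day 30 and 182 and 109 on day 60, against 304 and 221 on day 3 and 244 and 154 untreated. Herpud1, a gene of the unfolded protein response in the endoplasmic reticulum, had 856 and 605 on day 30 and 1034 and 805 on day 60, against 1215 and 2048 on day 3 and 1012 and 519.8 untreated, all late values below both day 3 ones, but another probe set shifted by 0.24.

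**Figure D3:**
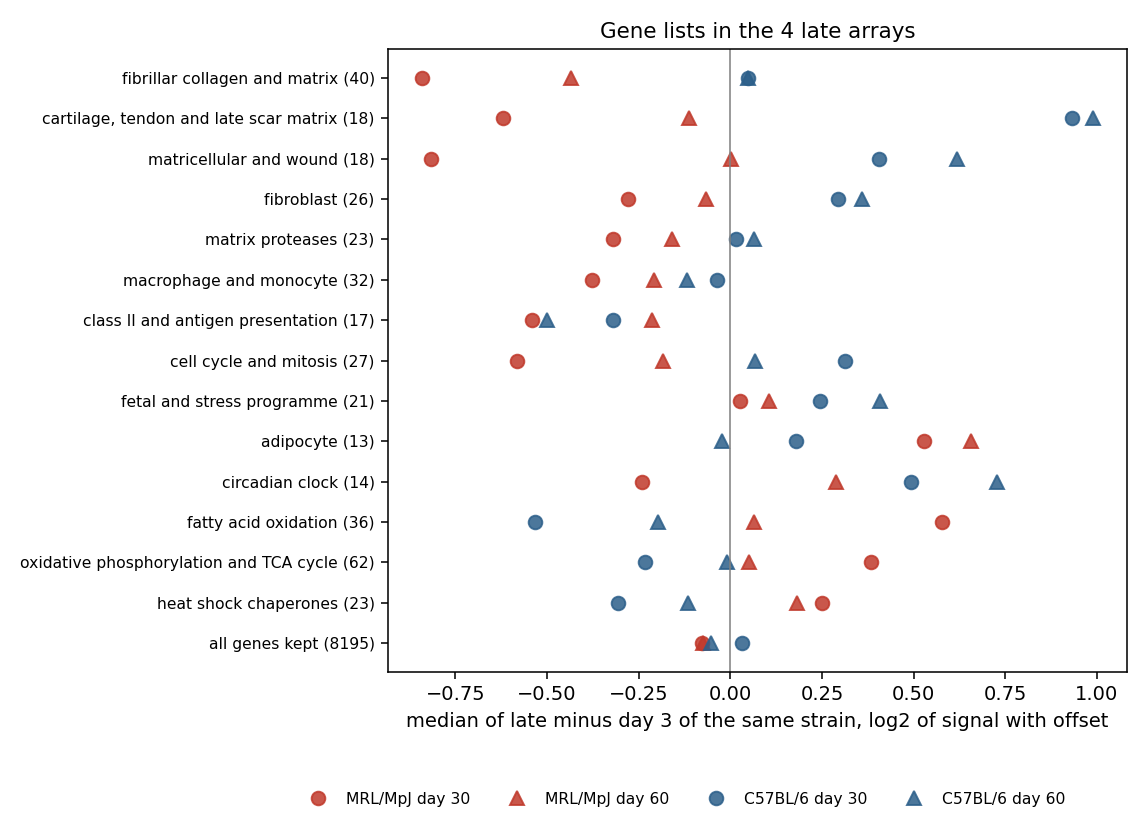
Median difference from the day 3 array of the same strain (horizontal axis, log2 of signal plus offset) for 14 gene lists and for all 8195 genes, with the number of tested members in brackets; red is MRL/MpJ, blue C57BL/6, circles day 30 and triangles day 60. The class II list lies left of 0 in all 4 late arrays, whereas the matrix list ranges from -0.84 to 0.05 and the cartilage and tendon list from -0.62 to 0.99.

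Other genes stood higher late than on day 3. The 5 late-only genes above untreated were Ifi27l2a, Plvap and Cyp2e1, and Scd1 and Dbp, which are described further below. Ifi27l2a, an interferon-inducible gene, had 885 and 592 on day 30 and 915 and 728 on day 60, against 139 and 243 on day 3 and 85.4 and 334 untreated. Its day 3 difference from untreated was 0.55 in MRL/MpJ and -0.42 in C57BL/6, so the small mean came from opposite differences. On days 30 and 60 it differed from untreated by 3.00 and 3.05 in MRL/MpJ and by 0.77 and 1.06 in C57BL/6. All late values exceeded both day 3 and both untreated values, a late shift of 1.90 (SE 0.30, limma adjusted p = 0.803). Other interferon-stimulated genes did not share this course. Of 18 tested 0 lay above day 3 in all 4 late arrays and 1 below, against 8.09% and 11.9% of all genes. Plvap, which forms the diaphragms of fenestrated endothelium, had 177 and 234 on day 30 and 241 and 172 on day 60, against 114 and 56.1 on day 3 and 85.1 and 45.8 untreated, again with no overlap of late and day 3 values (log2 1.08, SE 0.28). The wider endothelial and angiogenic list had 4 of 28 members above and 5 below day 3 in all 4, against 8.09% and 11.9% of all genes. Its median shift was -0.09. Cyp2e1, a cytochrome P450 that oxidises ethanol, had 275 and 176 on day 30 and 735 and 313 on day 60, against 195 and 104 on day 3 and 142 and 89.5 untreated, and here the C57BL/6 day 30 value overlapped the day 3 values. Trpm6, a magnesium channel, had 156 and 191 on day 30 and 119 and 118 on day 60, against 33.7 and 45.1 on day 3 and 32.8 and 7.8 untreated. In C57BL/6, Trpm6 was already above untreated on day 3, by a log2 of 1.02 between dim signals. Bmp4, a growth factor of the TGF-beta family, had 177 and 252 on day 30 and 296 and 288 on day 60, against 145 and 107 on day 3 and 115 and 110.2 untreated. Neither gene's late values overlapped those of day 3. Tgfb2 and Tgfbr3, a ligand of the same family and its co-receptor betaglycan, shifted by 0.63 (SE 0.25) and 0.71 (SE 0.26), both above day 3 in all 4 late arrays. Tgfb2 already stood above untreated on day 3, by 0.90 in MRL/MpJ and 0.26 in C57BL/6. Of the 31 genes of that pathway, 5 lay above and 2 below day 3 in all 4, against 8.09% and 11.9% of all genes. Their median shift was only 0.03.

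Some fat-related genes, Scd1, Car3 and Adipoq, reached their highest signals on day 60, which the adipocyte list as a whole did not. Scd1, stearoyl-CoA desaturase, which makes monounsaturated fatty acids, had 567 and 919 on day 30 and 2178 and 1708 on day 60, against 436 and 456 on day 3 and 335 and 312 untreated. Car3, carbonic anhydrase 3, abundant in fat and slow muscle, had 1022 and 428 on day 30 and 2702 and 1130.4 on day 60, against 132 and 253 on day 3 and 149.6 and 85.2 untreated and the largest mean late shift of the 13 adipocyte genes tested, 2.38 (SE 0.60). Its other probe set gave 1.32 and that of Scd1 0.87. Adipoq, the fat cell hormone adiponectin, had 361 and 49.2 on day 30 and 972 and 347 on day 60, against 63.6 and 63.5 on day 3 and 18.3 and 10.5 untreated. In C57BL/6 the day 30 value of Adipoq was below that of day 3, and the other late values lay well above. The list as a whole had 2 members above day 3 in all 4 late arrays and 0 below, against 8.09% and 11.9% of all genes. Its median shift was 0.41. By array that median was 0.53 on day 30 and 0.66 on day 60 in MRL/MpJ, and 0.18 and -0.02 in C57BL/6. Its summed signal was 38509 to 40747 in late, 32721 to 38894 in day 3 and 35929 to 37983 in untreated arrays. Whether fat attached to the sample took part in these differences was not tested.

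Several immunoglobulin genes were highest in the day 60 hearts. Igkv8-30, a variable segment of the kappa light chain, had 140.1 and 290.0 on day 30 and 626 and 720.4 on day 60, against 75.0 and 144 on day 3 and 42.2 and 33.0 untreated and was, with Dkk3, 1 of the 2 genes that had gone further up after day 3. The other probe set of Dkk3 shifted by only 0.49 from day 3. Ighm, the heavy chain of IgM, had 274 and 1021 on day 30 and 996 and 4997 on day 60, against 326 and 484 on day 3 and 191 and 178 untreated. Its 10 other probe sets shifted by -0.56 to 0.93. Jchain, which joins IgM and IgA chains in plasma cells, had 49.6 and 134 on day 30 and 569 and 629 on day 60, against 100.1 and 149.7 on day 3 and 41.5 and 48.0 untreated. In both strains the day 60 value of Jchain was at least 4 times that of day 30, a day 60 against day 30 difference of 2.48 (SE 0.31, limma adjusted p = 0.311). Iglv1, a lambda light chain segment, had 26.1 and 75.0 on day 30 and 142 and 356 on day 60, against 27.9 and 46.1 on day 3 and 15.8 and 5.1 untreated. Its mean late shift from day 3 was 1.10, but -0.61 on its other probe set, which is dim. Cd37, a surface protein of mature B cells, had 81.9 and 61.8 on day 30 and 34.7 and 137 on day 60, against 176 and 168 on day 3 and 124 and 131 untreated, below day 3 in all 4 late arrays. Of the 14 B cell and immunoglobulin genes on the array 11 were tested. Of these, 0 lay above day 3 in all 4 late arrays, where 8.09% of all genes did, and their median shift was -0.12. The summed signal of the list was 1331 to 7171 in late, 1869 to 1982 in day 3 and 1195 to 1333 in untreated arrays. For day 60 against day 30 limma called 0 of 8195 genes (0%), and 488 (5.95%) had an unadjusted p under 0.05. Besides Jchain, Arfgap3 and Prss39 had the smallest p-values. Arfgap3, a regulator of Golgi transport, had 23.8 and 16.9 on day 30 and 231 and 228 on day 60, against 156 and 159 on day 3 and 101 and 115 untreated. Prss39, a protease gene, had 221 and 288 on day 30 and 30.4 and 30.6 on day 60, against 107 and 90.1 on day 3 and 225 and 83.4 untreated.

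**Figure D4:**
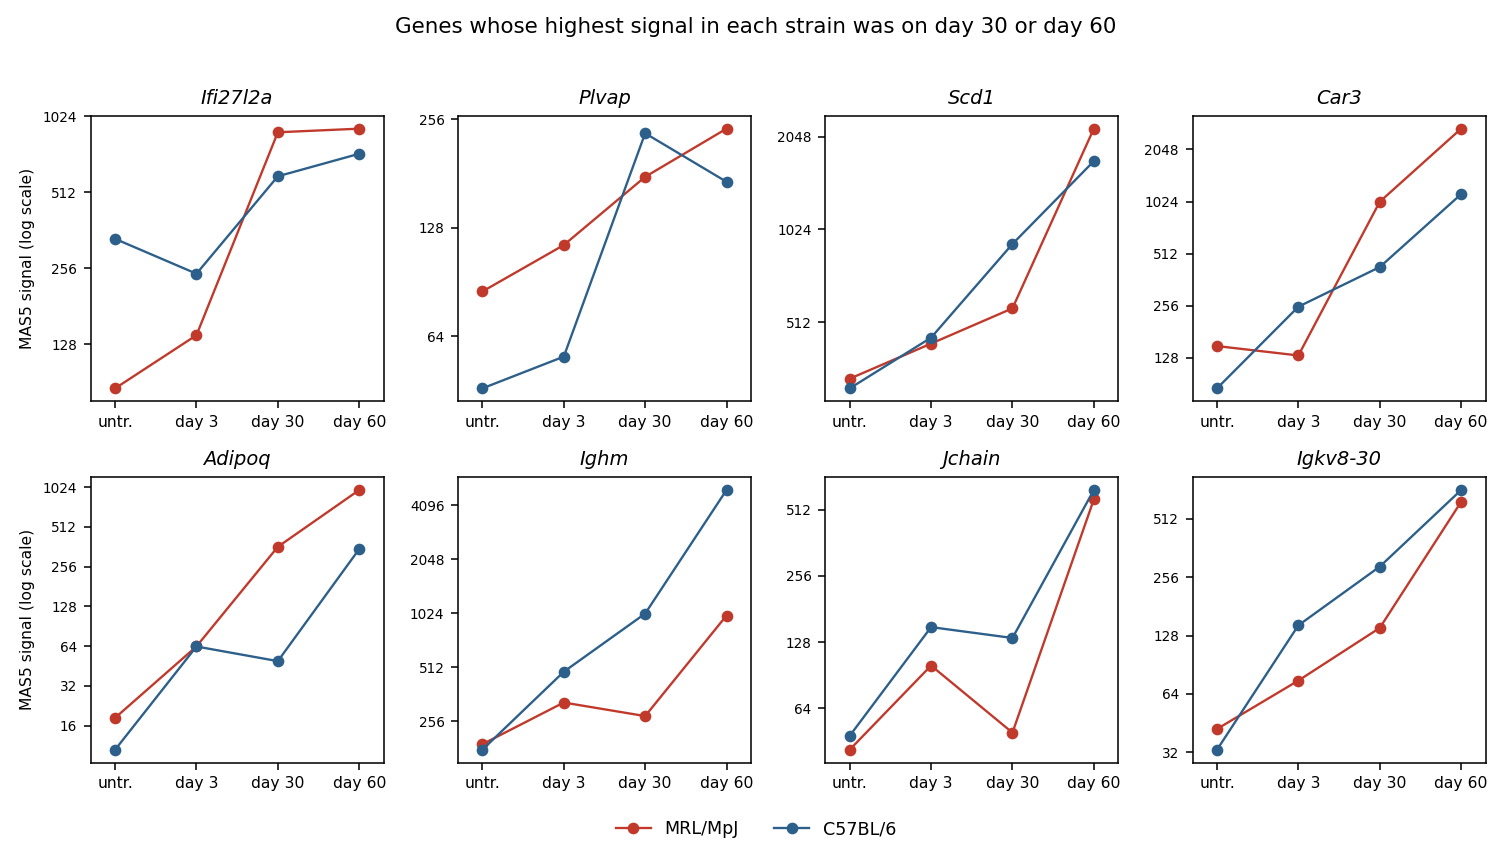
MAS5 signal (log axis) by time point in each of the 8 arrays, 1 point an array, MRL/MpJ in red and C57BL/6 in blue. Ifi27l2a, Plvap, Scd1 and Car3 lay above day 3 in all 4 late arrays, while Ighm, Jchain, Igkv8-30 and Adipoq were highest on day 60 in both strains.

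Matrix genes of cartilage and tendon were high late, and their late shift from day 3 was unlike in the strains. Of 18 tested, 14 lay above untreated in all 4 late arrays, where 14.6% of all genes did. Against day 3, 2 lay above and 0 below in all 4, where 8.09% and 11.9% of all genes did. Comp, cartilage oligomeric matrix protein, had 576 and 1774 on day 30 and 1846 and 2815 on day 60, against 857 and 342 on day 3 and 109.7 and 94.3 untreated. Thbs4, thrombospondin 4, had 1030.5 and 497 on day 30 and 536 and 871 on day 60, against 627 and 85.1 on day 3 and 72.0 and 52.1 untreated. Angptl7, a secreted angiopoietin-like protein, had 165 and 498 on day 30 and 383 and 405 on day 60, against 238 and 53.8 on day 3 and 109 and 65.3 untreated. The late values of Comp in C57BL/6 were over 5 times the day 3 value, whereas the MRL/MpJ day 3 value was already high and its day 30 value lower. Cpxm2, a secreted carboxypeptidase-like protein, had 988 and 766 on day 30 and 1436 and 1105 on day 60, against 644 and 316 on day 3 and 753 and 486 untreated, with late values above day 3 in all 4 arrays. Its mean late shift was 1.16, but only 0.27 on its other, dimmer probe set. The list's median shift from day 3 was -0.62 and -0.11 on days 30 and 60 in MRL/MpJ and 0.93 and 0.99 in C57BL/6, a difference that was not tested. Timp3, an inhibitor of matrix proteases, had 1269 and 2266 on day 30 and 3740.4 and 2476 on day 60, against 1898 and 878 on day 3 and 1031 and 707 untreated, below day 3 in the MRL/MpJ day 30 array alone.

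The means of 7 genes low on day 3 were back within 2-fold of untreated late, although single arrays lay further off. Ift46, a component of the transport machinery of cilia, had 197 and 155 on day 30 and 208 and 140.3 on day 60, against 44.6 and 31.7 on day 3 and 190.3 and 116 untreated. Its late values were at least 3 times the day 3 values of the same strain, and the shift of 1.60 (SE 0.22) had the smallest p of the comparison, with limma adjusted p = 0.709. Cacnb2, the beta subunit of the L-type calcium channel of heart muscle, had 219.5 and 242 on day 30 and 325 and 327 on day 60, against 89.9 and 122 on day 3 and 383 and 219 untreated. Every late value of Cacnb2 was above both day 3 values (log2 1.18, SE 0.26). Myl1, the fast skeletal myosin light chain, had 767 and 358 on day 30 and 1976 and 396 on day 60, against 290.3 and 196 on day 3 and 598 and 498 untreated, highest in the MRL/MpJ day 60 array. Ppp1r12c, a subunit of myosin phosphatase, had 206 and 315 on day 30 and 128 and 119 on day 60, against 43.1 and 42.0 on day 3 and 157 and 108 untreated. Shmt1, an enzyme of one-carbon metabolism, had 274 and 695 on day 30 and 261 and 316 on day 60, against 205 and 65.7 on day 3 and 279.9 and 277 untreated. The 3 other probe sets of Shmt1 shifted by 0.22 to 0.32. Among the late values, the MRL/MpJ day 60 array for Myl1 and the C57BL/6 day 30 array for Ppp1r12c and Shmt1 exceeded untreated by log2 differences of 1.68, 1.33 and 1.24. Efcab14 and the clock gene Nr1d1 complete the 7 genes. Other genes with small p-values and higher late signals were dim. Fam50a had 199 and 142 on day 30 and 199 and 178 on day 60, against 28.8 and 64.2 on day 3 and 87.6 and 77.9 untreated, so all late values exceeded both day 3 ones. Slc30a1, a zinc exporter, had 133 and 98.0 on day 30 and 159 and 162 on day 60, against 42.5 and 27.9 on day 3 and 44.1 and 179.7 untreated. Tlr9, a receptor for bacterial DNA, had 80.1 and 200.4 on day 30 and 66.2 and 126 on day 60, against 16.0 and 17.3 on day 3 and 184 and 8.3 untreated. For Slc30a1 and Tlr9 the untreated arrays of the strains differed by at least 4 times.

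Clock genes stood on opposite sides of day 3. In the circadian oscillator Arntl (BMAL1) and Clock drive the repressors Nr1d1 and Nr1d2 (REV-ERB) and the output factors Dbp and Tef, and the repressors in turn shut off Arntl. Dbp had 351 and 729 on day 30 and 773 and 899 on day 60, against 236 and 164 on day 3 and 342 and 220.1 untreated, with late values above both day 3 values (log2 1.59, SE 0.38) and 2.15 on its other probe set. Dbp was late only by class, though its MRL/MpJ day 30 value lay above untreated by a log2 of only 0.036. Nr1d1 had 319 and 758 on day 30 and 565 and 701 on day 60, against 46.1 and 359.6 on day 3 and 511 and 619 untreated, higher than day 3 in all 4 late arrays, with the lowest value of all in the MRL/MpJ day 3 array. Arntl had 131 and 101 on day 30 and 91.5 and 63.7 on day 60, against 238 and 251 on day 3 and 195 and 208 untreated, all late values below both day 3 and both untreated values (log2 -1.15, SE 0.27). Nr1d2, Tef and the repressor Bhlhe40 stood above day 3 in all 4 late arrays by 0.77, 0.51 and 0.67. Of the 14 clock genes tested, 5 lay above and 2 below day 3 in all 4, against 8.09% and 11.9% of all genes, and limma called 0 of them (adjusted p = 0.999 for Dbp, Nr1d1 and Arntl). The labels do not give the hour at which hearts were taken, so the part of sampling time in these values was not tested.

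Several heat shock genes were low at every time after ligation. Hspa1b, an inducible HSP70 chaperone, had 129.7 and 84.8 on day 30 and 478 and 226 on day 60, against 175 and 175 on day 3 and 1894 and 773 untreated. All ligated values lay below both untreated values, with a late difference from untreated of -2.50 (SE 0.50, limma adjusted p = 0.104) and of -2.31 and -2.19 on its other probe sets. Hspa1a had 86.1 and 140.4 on day 30 and 234 and 83.0 on day 60, against 96.3 and 135 on day 3 and 770.5 and 323 untreated. The copies Hspa1a and Hspa1b are nearly identical, so their probe sets may share transcripts. Hsph1, the HSP110 chaperone, had 358 and 236 on day 30 and 428 and 338 on day 60, against 269 and 357 on day 3 and 806 and 730.2 untreated. Fkbp4, the HSP90 partner FKBP52, had 623 and 429 on day 30 and 359 and 624 on day 60, against 282 and 801 on day 3 and 1035 and 1126 untreated. The other probe set of Hsph1 gave -0.71 from untreated, and that of Fkbp4, which is dim, 0.12. Of the 11 persistently low genes 3 belong to the heat shock list, whose 23 tested members had 10 below untreated in all 4 late arrays, where 17.9% of all genes did, and 2 above in all 4, with a median of -0.34. By array the median from untreated was -0.09 on day 30 and -0.33 on day 60 in MRL/MpJ, and -0.72 and -0.28 in C57BL/6. The 2 higher members, named after their values were seen, were Hspa2, which was persistently high, and Hspb7. The late shift from day 3 was opposite in the strains, with list medians of 0.25 and 0.18 in MRL/MpJ and -0.31 and -0.12 in C57BL/6. Ano10, of the anoctamin family, had 380.2 and 159 on day 30 and 377 and 367 on day 60, against 267 and 524 on day 3 and 824 and 767 untreated. Ces1d, a carboxylesterase that hydrolyses triglycerides, had 189.9 and 247 on day 30 and 139 and 367 on day 60, against 122 and 576 on day 3 and 596 and 768 untreated. Both stayed below untreated in all 4 late arrays. Ces1d differed from untreated late by -1.49, but by only -0.65 and -0.38 on its other probe sets.

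The proximal promoters of these chaperone genes are shown because the genes lay low together and heat shock factor binds paired GAA and TTC repeats. Each line gives the 250 bases before the start of the gene, 5′ to 3′ on the gene's strand, from RefSeq (GRCm38.p6), with capitals for a match to GAANNTTC or TTCNNGAA; each motif reads the same on both strands, and the motifs may overlap. The windows are chr17:34959239-34959488 (minus strand) for Hspa1b, chr17:34972157-34972406 (minus) for Hspa1a, chr5:149636337-149636586 (minus) for Hsph1 and chr6:128438657-128438906 (minus) for Fkbp4. Hsph1, and Arntl searched below, have 2 annotated windows each, of which only the first listed was used.
Hspa1b: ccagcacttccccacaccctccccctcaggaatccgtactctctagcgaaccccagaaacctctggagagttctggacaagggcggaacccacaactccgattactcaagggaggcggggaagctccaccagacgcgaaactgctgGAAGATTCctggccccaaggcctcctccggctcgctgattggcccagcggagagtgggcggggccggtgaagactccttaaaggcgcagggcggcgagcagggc
Hspa1a: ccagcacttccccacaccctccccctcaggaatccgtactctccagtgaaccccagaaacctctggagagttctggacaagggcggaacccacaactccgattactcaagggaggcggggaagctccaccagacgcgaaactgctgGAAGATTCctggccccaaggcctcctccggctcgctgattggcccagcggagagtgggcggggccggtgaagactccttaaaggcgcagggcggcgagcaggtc
Hsph1: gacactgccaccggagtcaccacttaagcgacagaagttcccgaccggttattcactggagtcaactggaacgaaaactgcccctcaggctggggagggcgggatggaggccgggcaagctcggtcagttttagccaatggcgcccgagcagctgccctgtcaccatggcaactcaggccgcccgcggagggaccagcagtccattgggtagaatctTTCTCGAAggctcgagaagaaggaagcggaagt
Fkbp4: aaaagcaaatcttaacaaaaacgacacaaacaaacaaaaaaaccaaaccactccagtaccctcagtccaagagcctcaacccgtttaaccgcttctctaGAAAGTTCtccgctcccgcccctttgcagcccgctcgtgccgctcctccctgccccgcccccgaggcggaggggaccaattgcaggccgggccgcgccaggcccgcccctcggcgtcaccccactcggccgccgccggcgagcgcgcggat
The windows of Hspa1b and Hspa1a share 247 of 250 bases, and GAANNTTC starts 104 bases before the gene in both. It starts 151 bases before Fkbp4, and TTCNNGAA starts 33 bases before Hsph1. Among 32851 promoter windows of this length, 6.69% hold GAANNTTC and 7.17% TTCNNGAA. A match describes the letters only and shows no binding. In the same windows of Dbp, Nr1d1 and Arntl, 0 matches were found to CACGTG (held by 6.02% of windows), AGGTCA (14%) or TTATGNAA (3.07%) on either strand, nor in that of Serpina3n to TTCNNNGAA (7.02%). The chaperone windows were chosen for display after these searches and after the values were seen.

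**Figure D5:**
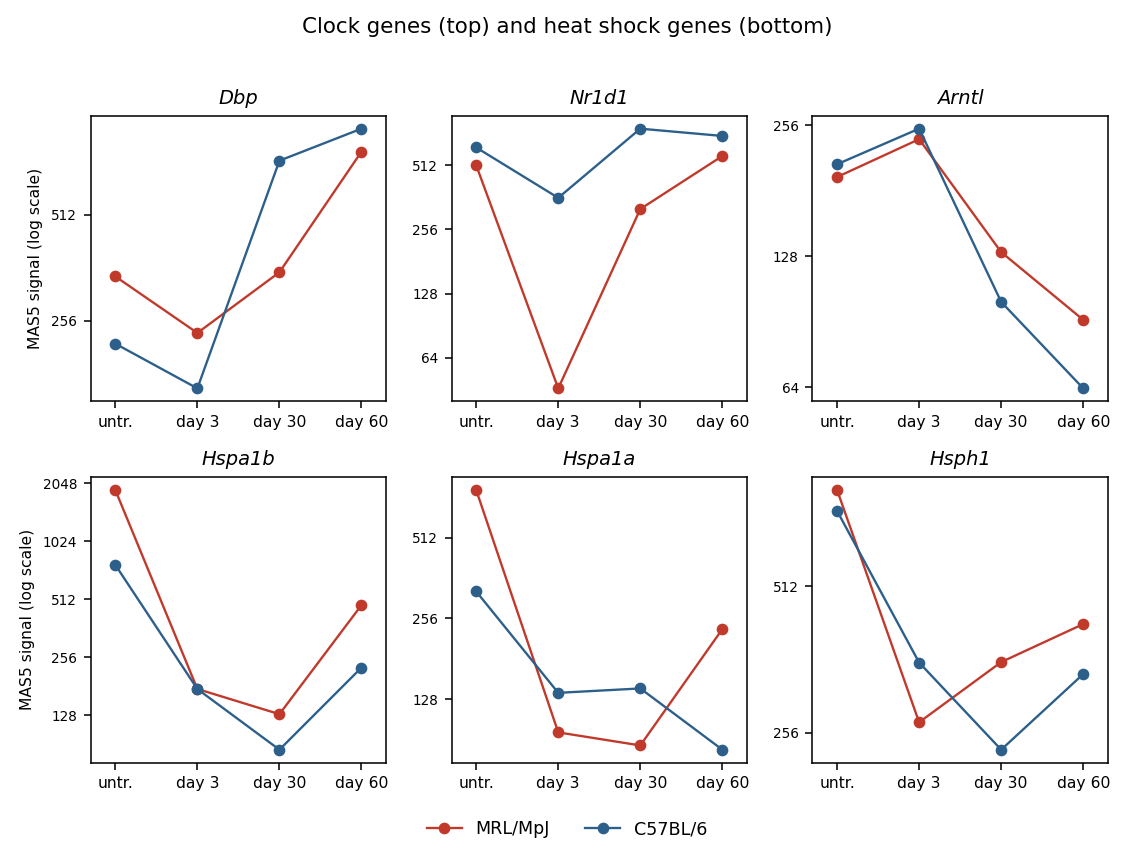
MAS5 signal (log axis) by time point in each of the 8 arrays, 1 point an array, MRL/MpJ in red and C57BL/6 in blue. Dbp and Nr1d1 lay above and Arntl below day 3 in all 4 late arrays, and Hspa1b, Hspa1a and Hsph1 lay below untreated hearts at every time after ligation.

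Many genes of energy metabolism lay below untreated hearts late, and the lists' medians lay near those of day 3. Of 36 genes of fatty acid oxidation, from which adult heart muscle draws most of its energy, 23 lay below untreated in all 4 late arrays, as did 28 of 62 genes for oxidative phosphorylation and the TCA cycle, against 17.9% of all genes. Their median late differences from untreated were -0.46 and -0.31, and their median shifts from day 3 were -0.02 and 0.04. By strain the fatty acid list shifted by 0.58 and 0.06 in MRL/MpJ on days 30 and 60, and by -0.53 and -0.20 in C57BL/6. Pdk4, the kinase that holds back glucose oxidation, had 3103 and 806 on day 30 and 2364 and 716 on day 60, against 597 and 1799 on day 3 and 2324 and 3153 untreated. In MRL/MpJ the late values of Pdk4 were over 3 times the day 3 value, whereas in C57BL/6 they were under the day 3 value, and it had the smallest p for a strain difference in the late shift (MRL/MpJ minus C57BL/6 3.34, SE 0.53, limma adjusted p = 0.883).

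Several genes of the fetal and stress programme were high late. Myh7, the fetal beta-myosin heavy chain, had 5735 and 7273 on day 30 and 5148 and 5679.5 on day 60, against 6739 and 1248 on day 3 and 1011 and 339 untreated. Nppa, atrial natriuretic peptide, had 28877 and 41056 on day 30 and 26763 and 17996 on day 60, against 28354 and 6605 on day 3 and 5781 and 3455 untreated. For both, the C57BL/6 late values were far above that of day 3, while the MRL/MpJ values had reached the late level by day 3. Late against untreated, Myh7 differed by 3.27 (SE 0.52, limma adjusted p = 0.0612) and Nppa by 2.61 (SE 0.47, limma adjusted p = 0.0765). Ankrd1, a stretch-responsive muscle protein, had 19799.7 and 17576 on day 30 and 22103 and 19450.4 on day 60, against 17587 and 8061 on day 3 and 11612 and 11685 untreated, above day 3 in all 4 late arrays. Of the 21 genes of the list 3 lay above and 0 below day 3 in all 4, against 8.09% and 11.9% of all genes. Above untreated in all 4 lay 11, where 14.6% of all genes did, with a median of 0.57. Nppa is also an atrial marker, and Myl4, an atrial light chain of the same list, had 3279 and 4853 on day 30 and 5213 and 154 on day 60, against 248 and 1329.7 on day 3 and 759 and 483 untreated. In the arrays where Myl4, Myl7 and Sln were lowest, MRL/MpJ day 3 and C57BL/6 day 60, Nppa read 28354 and 17996. The C57BL/6 day 60 value was the lowest late value of Nppa, and the part of atrial tissue in these signals was not tested. Cnn1, calponin of smooth muscle, had 127 and 124 on day 30 and 162 and 22.0 on day 60, against 24.3 and 28.8 on day 3 and 28.8 and 32.0 untreated, high in 3 of 4 late arrays. Tnnt3, the fast skeletal troponin T, had 35.8 and 146 on day 30 and 35.0 and 217 on day 60, against 26.3 and 48.4 on day 3 and 61.4 and 36.1 untreated, high in the late C57BL/6 arrays.

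The strains were compared directly in the late shift from day 3, and limma called 0 of 8195 genes (0%), with 270 (3.29%) at an unadjusted p under 0.05. Without the C57BL/6 day 30 array it called 4. After Pdk4 the smallest p-values belonged to Col12a1 and Acad10. Col12a1, a collagen of tendon and wounds, had 90.8 and 275 on day 30 and 174 and 199 on day 60, against 449 and 24.8 on day 3 and 79.5 and 96.9 untreated. Col12a1 stood below day 3 in the late MRL/MpJ arrays and above it in the late C57BL/6 arrays (-3.92, SE 0.63, limma adjusted p = 0.883). Acad10, of the acyl-CoA dehydrogenase family, had 145 and 40.5 on day 30 and 103 and 32.4 on day 60, against 38.5 and 242 on day 3 and 39.8 and 39.9 untreated, and did the reverse (3.24, SE 0.53, limma adjusted p = 0.883).

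Among the genes lower late than on day 3 with the smallest p-values, most were dim. Psrc1, a spindle-associated protein, had 45.2 and 26.0 on day 30 and 39.0 and 14.2 on day 60, against 161 and 169.8 on day 3 and 101 and 108 untreated (log2 -1.73, SE 0.25), with late values below all others, but its other probe sets shifted by -0.11 and -0.62. Unc50 had 354 and 170.0 on day 30 and 209 and 200.2 on day 60, against 602 and 460.4 on day 3 and 762 and 568 untreated, the largest signal among the late-only low genes. Its other probe sets shifted by -0.38 and -0.40 from day 3, and differed from untreated late by only -0.16 and -0.06. Tmco4 had 38.1 and 60.8 on day 30 and 62.4 and 33.2 on day 60, against 177 and 168 on day 3 and 67.6 and 92.7 untreated. Epb41l4a had 106 and 50.3 on day 30 and 80.1 and 56.9 on day 60, against 204 and 147 on day 3 and 116 and 155 untreated. Cyp2c38, a cytochrome P450, had 176 and 109.5 on day 30 and 138 and 154 on day 60, against 372 and 268 on day 3 and 244 and 237 untreated. In each of these 3 genes the late values lay below both day 3 values. The resolved genes Tuba3b, an alpha-tubulin, Stra8, known from germ cells entering meiosis, and Zdhhc6, a palmitoyl transferase, shifted by -1.37, -1.04 and -1.78. Their highest signals were 197, 135 and 697, all on day 3. Zdhhc6 had 104 and 220.4 on day 30 and 53.3 and 131 on day 60, against 697 and 310.0 on day 3 and 198 and 34.0 untreated. It was above untreated in both late C57BL/6 arrays and below it in both late MRL/MpJ arrays, so that only its mean was back within 2-fold. Its shift was -0.76 without the MRL/MpJ day 3 array and -2.80 without the C57BL/6 one, and its other probe set shifted by -1.13. The remaining late-only low genes named by size were Dglucy, Kifc2, Csn2, Gpbp1l1 and Dscam, with late signals of 44.0 to 194, 38.2 to 47.1, 19.0 to 87.4, 27.1 to 180.4 and 23.7 to 173. For Kifc2 and Dscam the small mean difference on day 3 came from opposite differences in the strains. They were 0.44 in MRL/MpJ and -0.88 in C57BL/6 for Kifc2, and -0.93 and 0.37 for Dscam. Other probe sets of Csn2, Kifc2 and Dscam, which are dim, differed from untreated late by only -0.05, -0.20 and 0.01.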

How the data were processed

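RNA of 8 left ventricle samples, 1 for each strain and time point, was measured on Affymetrix arrays. The deposited intensity values are linear signals of 22626 probe sets, for which the submitters' processing notes name MAS5; the version and the scaling target are not given in the sources used here. Array brightness, not depth, and the number of arrays limit the precision. The platform's annotation gave 1 gene symbol for 20380 probe sets, several for 691 and none for 1555, and each of 12393 genes was represented by its probe set with the highest mean. The 28.6 offset is the 20th percentile and the signal limit of 121 the median of all values. Linear models were fitted in R 4.3.3 with lmFit and moderated with eBayes (limma 3.58.1), p-values were adjusted by Benjamini-Hochberg over 8195 genes, and an adjusted p under 0.05 was a call. Late against day 3 used 6 arrays with strain as a block (3 residual degrees of freedom). Late and day 3 against untreated used 8 arrays with phase and strain (4), and the strain difference and day 60 against day 30 used fits with 2. The fits were tested on simulated data. Strain pairs the arrays; the labels give no replicate numbers.

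Courses used the signs and means of within-strain log2 differences, with a move set at a mean of 1, and a mean under 0.5 on day 3 for late-only genes. Genes named were, for late against day 3, the 8 with the smallest unadjusted p in each direction among those with a mean difference of at least 1 and the same sign in all 4 late arrays, none having passed; up to 6 of each course class by the smallest difference over its arrays; the 3 smallest p-values for the strain difference and for day 60 against day 30; and up to 4 members of a list, plus its defining markers and members that moved apart. Further genes, such as those called on day 3 and Coro1a, Psmb8, Tef and Tgfbr3, were chosen after their values were seen. The comparison, lists and rules were chosen with earlier results of these data known. Alternatives changed the offset, the filter, the normalization, the variance prior, the probe set rule, the strain block and the arrays included.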

Additional observations from a re-analysis of the deposited data

Results flagged for a closer look

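Of 92 genes named, 10 had a late array far from the other 3 by Dixon's gap test, where chance gives about 1 in 20. The gap between the outlying array and its nearest neighbour, as a share of the group's range, was 0.977 for Sln, 0.941 for Myl7, 0.863 for Myl4 and 0.834 for Cnn1, each lowest in the C57BL/6 day 60 array. Psmb8 was highest there, with 0.947. In the C57BL/6 day 30 array Ano10 (0.958) and Mpeg1 (0.856) were lowest and Anpep (0.877) highest, and in the MRL/MpJ day 30 array Tnc (0.919) was highest and Cd74 (0.837) lowest.

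In 11 lists the median late shift from day 3 ran one way in both late MRL/MpJ arrays and the other way in both late C57BL/6 arrays; these differences were not tested. Given as MRL/MpJ minus C57BL/6, the difference was -1.33 for cartilage, tendon and late scar matrix, -1.12 for the 4 Schwann and nerve genes tested, -0.68 for fibrillar collagen and matrix, -0.57 for cell cycle, -0.50 for fibroblast markers, -0.49 for chemokines and cytokines, -0.44 for Wnt signalling and -0.28 for matrix proteases. It was 0.69 for fatty acid oxidation, 0.43 for heat shock chaperones and 0.34 for oxidative phosphorylation and the TCA cycle. Among the 92 named genes the same opposition was seen for Col12a1 (-3.92), Pdk4 (3.34), Acad10 (3.24), Myh7 (-2.65), Sfrp2 (-2.49), Postn (-1.82), Ano10 (1.48), Fkbp4 (1.30), Ces1d (1.22), Hsph1 (0.80) and Kcne4 (0.53), and limma called 0 of these differences. Each strain had 1 day 3 array, which enters both of its late differences.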

How the results depend on the processing

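Late against day 3 had 0 calls in each of 17 alternatives. The other counts of called genes depended on the processing. Late against untreated, with 3 called, had 41 with the filter on the mean signal, 76 with an intensity trend, 21 with the offset doubled, 5 with it at 0.5 times, and 1 with no filter; leaving out 1 array gave 0 to 35. Day 3 against untreated, with 7 called, had 23 with an intensity trend, 4 with the offset at 0.5 times, 3 with every probe set tested, and 0 with quantile normalization or with no filter; leaving out 1 array gave 0 to 10. With no replicate block (strain left out), late against untreated had 13 calls, day 3 against untreated 0 and late against day 3 again 0. Leaving out 1 array gave 0 to 9 calls for day 60 against day 30 and 0 to 4 for the strain difference.

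Class counts also moved. With a limit of 1.5 on the log2 scale, 34 genes were persistently high, 1 had resolved, 0 had resolved in part, 0 had gone further up and 1 was late only; of low genes 2 were persistent, 1 resolved and 0 late only. Quantile normalization gave 2 resolved high, 1 further up and 10 late-only high. No filter gave 17 resolved high, 12 late-only high and 11 resolved low. An offset of 0.5 times the main one gave 8 late-only high, 18 persistent low and 19 late-only low, and double the offset gave 0 further up, 4 resolved low, 6 persistent low and 2 late-only low. Alternatives chosen after seeing the data used 1 strain or 1 late day. MRL/MpJ alone gave 64 resolved, 16 resolved in part, 166 persistent, 1 further up and 16 late only among high genes, and 69 resolved, 1 resolved in part, 27 persistent and 41 late only among low genes. C57BL/6 alone gave 13 resolved, 1 resolved in part, 11 further up and 43 late-only high genes, and 49 resolved, 19 persistent and 61 late-only low genes. Day 30 alone gave 13 resolved, 1 resolved in part and 14 late-only high genes and 41 late-only low genes, and day 60 alone 10 resolved, 9 further up and 15 late-only high genes and 30 late-only low genes. Without 1 late array, high genes ranged over 4 to 12 resolved, 2 to 5 resolved in part, 106 to 118 persistent, 1 to 7 further up and 5 to 15 late only. Low genes ranged over 6 to 11 resolved, 11 to 13 persistent, 0 to 1 further down and 13 to 18 late only. One strain or day asks for fewer arrays with the same sign; the cause of the other differences was not tested.

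Named genes changed sign against day 3 in 11 instances, without a call. With 1 array left out the difference ranged from -0.95 to 0.87 for Postn, -0.31 to 2.34 for Myh7, -0.028 to 2.04 for Nppa, -1.42 to 6.49 for Sln, -0.53 to 3.92 for Myl4 and -1.58 to 4.77 for Myl7. On day 60 alone it was 0.086 for Postn and -0.10 for Myl7, and on day 30 alone -0.43 for Jchain. Where an arm was left with 1 array, that array was assumed to vary like the others. Dim signals near the offset limit the folds of Psrc1, Tlr9, Iglv1 and Stra8.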
